A study of Mus musculus with 7 samples.

Results

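The 8 enzymes examined here carry acetyl-CoA to squalene, the first stretch of the cholesterol pathway: Acat2, Hmgcs1, Mvk, Pmvk, Mvd, Idi1, Fdps and Fdft1. They were chosen by name as the enzymes of these steps. Of the 8 listed, 7 had at least 1 probe set on the array named for them alone, with 18 probe sets in all out of 45037, and stood among 18193 named genes. Acat2 had no probe set in the annotation used and was not analysed here. The arrays, Affymetrix Mouse Genome 430 2.0, were hybridised with amplified RNA of luminal cells, the secretory epithelium of the prostate, sorted by flow cytometry from mouse prostates. The 4 T-ETV1 arrays (replicates A to D) came from mice with a cDNA of human ETV1, an ETS transcription factor, driven by the Tmprss2 promoter, and their cells were sorted as GFP positive. The 3 WT arrays (replicates A to C) came from wild-type mice without a GFP gate. Both groups were sorted as negative for lineage markers and Sca1 and positive for CD49f, so genotype and GFP gate cannot be told apart. The sources used here give neither strain, age nor number of mice behind an array, and p-values measure only the spread between these arrays.

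In the cytosol Acat2 joins acetyl-CoA units and Hmgcs1 adds a further unit to form HMG-CoA, which is reduced to mevalonate. Mvk and Pmvk phosphorylate mevalonate, Mvd removes carbon dioxide to give isopentenyl diphosphate, and Idi1 turns this into its isomer. Fdps condenses these units to farnesyl diphosphate, the branch point to prenylated proteins, dolichol and ubiquinone, and Fdft1 joins farnesyl units to squalene, the first step committed to sterols. Genes of the pathway are classic targets of SREBP2, which leaves the endoplasmic reticulum when sterols are low and acts on promoters together with NF-Y and Sp1. In human prostate cancer cell lines androgens raise the expression of sterol synthesis genes.

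Promoter windows, from 250 bases before to 50 after a start site, were found in RefSeq (GRCm38.p6) for 6 of the 8 listed genes, with 7 windows in all. The windows of Hmgcs1, Idi1 and Mvk are shown because Hmgcs1 held the sterol element, Idi1 had the largest difference between the groups and Mvk was the enzyme that was not higher in T-ETV1. Capitals mark matches, on either strand, to the sterol regulatory element TCACCCCAC (also matched as TCACNCCAC), the NF-Y box CCAAT, the GC box GGGCGG bound by Sp1, and the ETS core with its flank, CCGGAAG. The windows are chr13:119690101-119690400 on the plus strand for Hmgcs1, chr13:8885356-8885655 on the plus strand for Idi1 and chr5:114444019-114444318 on the plus strand for Mvk.
Hmgcs1: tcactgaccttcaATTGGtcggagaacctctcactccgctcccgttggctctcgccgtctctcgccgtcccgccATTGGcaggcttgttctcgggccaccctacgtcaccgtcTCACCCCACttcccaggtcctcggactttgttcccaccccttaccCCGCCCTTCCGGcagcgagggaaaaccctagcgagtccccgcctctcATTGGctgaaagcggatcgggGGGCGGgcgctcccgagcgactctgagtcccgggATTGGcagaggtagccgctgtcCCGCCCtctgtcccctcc
Idi1: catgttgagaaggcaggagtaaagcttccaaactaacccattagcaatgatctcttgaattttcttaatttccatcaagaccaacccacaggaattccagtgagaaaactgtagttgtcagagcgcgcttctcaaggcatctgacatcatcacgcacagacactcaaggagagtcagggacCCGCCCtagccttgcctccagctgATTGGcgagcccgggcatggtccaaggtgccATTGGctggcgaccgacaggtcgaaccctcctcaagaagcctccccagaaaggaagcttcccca
Mvk: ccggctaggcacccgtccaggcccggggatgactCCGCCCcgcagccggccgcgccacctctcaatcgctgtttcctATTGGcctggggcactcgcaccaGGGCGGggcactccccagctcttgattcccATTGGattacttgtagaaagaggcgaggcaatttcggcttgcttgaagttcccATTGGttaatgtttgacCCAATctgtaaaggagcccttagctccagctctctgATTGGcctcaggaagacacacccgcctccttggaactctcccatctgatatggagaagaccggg

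The sterol element TCACCCCAC, starting 137 bases before the start site, was found in Hmgcs1 and in no other of the 6 genes, and 0.551% of the 32851 windows of all genes held it (1.24% with 1 base of any kind). Hmgcs1 was also the only one of the 6 with the ETS letters, read on the minus strand 87 bases before the start site and sharing 1 base with a GC box, against 8.86% of all windows. CCAAT boxes lay in 5 of the 6 genes (Hmgcs1, Idi1, Mvd, Mvk and Pmvk), against 37.4% of all windows. GC boxes lay in 5 of the 6 (Acat2, Hmgcs1, Idi1, Mvd and Mvk), against 35.7% of all windows. The counts are of genes and the shares are of windows. Pmvk had a second window, which held none of these motifs. Hmgcs1 held 4 CCAAT boxes and Mvk 5. A match describes the letters of a window and is not a measured binding site.

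Luminal markers were high on all arrays and other cell types were present at unequal levels. The summed intensity of 10 measured luminal markers lay between 70760 and 80880 in T-ETV1 and between 72641 and 77003 in WT, with Pbsn, a secretory protein, at a mean of 12198. All 10 basal, 10 endothelial and 10 fibroblast markers had a lower mean log2 value in T-ETV1. Their sums were 3600 to 22346 in T-ETV1 against 9190 to 24339 in WT for basal genes, 559 to 2547 against 1944 to 6024 for endothelial genes, and 2252 to 9549 against 5884 to 30958 for fibroblast genes. Of the 10 smooth muscle markers 9 were lower, with sums of 309 to 1186 in T-ETV1 and 845 to 6108 in WT. Leukocyte markers (7 of 8 measured lower) summed to 82.3 to 1846 in T-ETV1 and 98.8 to 5653 in WT, and myeloid markers (9 of 10 lower) to 675 to 9783 and 438 to 19757. In every one of these lists of other cells T-ETV1 C and WT C were the highest arrays of their groups. The most abundant marker of each list was Dst (basal), Emcn (endothelial), Dcn (fibroblast), Acta2 (smooth muscle), Laptm5 (leukocyte) and Lyz2 (myeloid). Itgam was at or under an intensity of 16 on all 7 arrays, and no other marker was. The part of these cells in the values of the enzymes was not tested. In sorted bulk samples fewer cells of a type and less RNA per cell cannot be told apart. Array medians of the deposited intensity lay between 48.5 and 73.7.

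Most enzymes between acetyl-CoA and squalene had higher mean levels in T-ETV1 luminal cells than in WT luminal cells, but none passed the test. The differences were largest for Idi1, at 1.63-fold, and Fdft1, at 1.54-fold, and lay between 1.11-fold and 1.27-fold for Hmgcs1, Pmvk, Fdps and Mvd, while Mvk was at 0.935-fold. All differences are T-ETV1 minus WT of log2(intensity + 16), which understates the change of dim probe sets, and of several probe sets the brightest stood for its gene. By limma with Benjamini-Hochberg adjustment over 18193 genes, 0 of the 7 enzymes had an adjusted p under 0.05, where percent called over all genes was 0%. The adjusted p values of the enzymes lay between 0.801 and 0.977. At an unadjusted p under 0.05 there was 1 enzyme, Fdft1, and it was higher, against 2.00% of all genes called higher at that level and 6.12% called in either direction. Positive differences were found for 6 of the 7 enzymes, against 44.4% of all genes. With arrays centred on their medians it was 7 of 7 enzymes against 67.8% of all genes, and after quantile normalization 6 of 7 against 54.0%. The median difference of the 7 enzymes was 0.27, and that of all genes was -0.03. The enzymes thus lay 0.30 above the median of all genes, and 0.30 above it after quantile normalization too. Median centring adds the same amount to every gene, which gave 0.41 and 0.11 and cannot change this gap. Without WT C, the lowest array for 3 of the enzymes, the median of the enzymes was 0.14 and the gap 0.14, and with array weights the gap was 0.13.

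**Figure D1:**
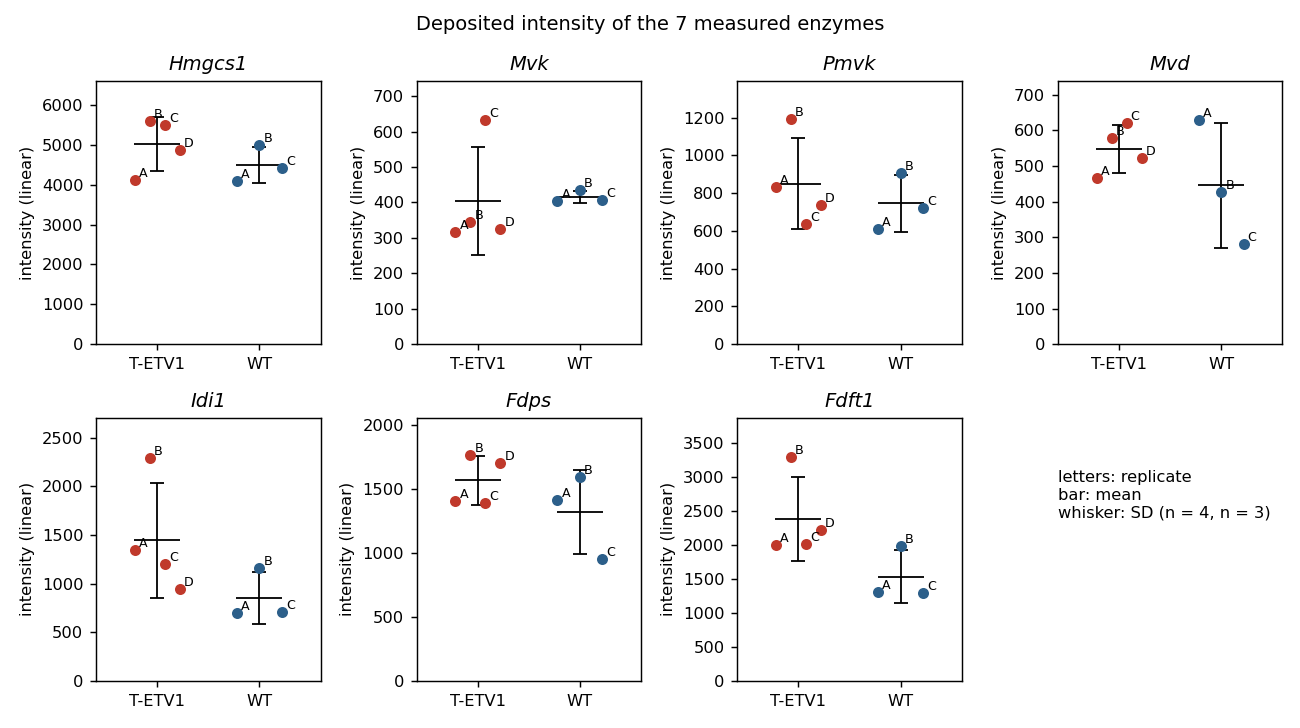
Deposited linear intensity (y axis) of the brightest probe set of each measured enzyme, with T-ETV1 arrays (red) left of WT arrays (blue), replicate letters beside the points, and black bars for mean and SD (n = 4 and n = 3). Only in Fdft1 do all T-ETV1 arrays lie above all WT arrays, and there T-ETV1 A (1991) is just above WT B (1987).

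At the entry of the pathway, Hmgcs1, the HMG-CoA synthase of the cytosol, had intensities of 4128, 5598, 5507 and 4859 in T-ETV1 A to D, against 4087, 4993 and 4406 in WT A to C. T-ETV1 A lay beside the lowest WT array, and the groups overlapped. The log2 difference was 0.15 ± 0.15 (SE; limma adjusted p = 0.917), with a 95% interval of -0.20 to 0.50. It lay between 0.09 (without WT A) and 0.24 (without T-ETV1 A) when 1 array was left out, and was 0.01 with array weights. Hmgcs1 was thus the enzyme with the narrowest interval, and a difference of more than 1.42-fold upwards lay outside it. All 5 Hmgcs1 probe sets had a positive difference, and the widest was that of 1441536_at, at 0.61 ± 0.47, where WT alone ran over 226, 433 and 99.2.

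Mvk, the mevalonate kinase, was the enzyme with no higher mean in T-ETV1. Its intensities were 317, 345, 632.5 and 324 in T-ETV1 A to D and 404, 436 and 406 in WT A to C. T-ETV1 A, B and D lay below all WT arrays and T-ETV1 C lay above them all. The log2 difference was -0.10 ± 0.25 (limma adjusted p = 0.977), -0.32 without T-ETV1 C (adjusted p = 0.396) and 0.04 after median centring. The dimmer probe set 1430619_a_at had 116, 95.7, 93.4 and 107 in T-ETV1 against 91.4, 117 and 101 in WT, and there T-ETV1 C was the lowest of its group. On the genome the start site of Mvk is separated by 241 bases from that of Mmab, a gene of cobalamin metabolism read on the opposite strand, which was looked at after the values of Mvk were seen. The brightest Mmab probe set had 295, 337, 191 and 303 in T-ETV1 A to D and 237, 280.0 and 238 in WT A to C, with a log2 difference of 0.13 ± 0.20 (limma adjusted p = 0.954). T-ETV1 C, the highest array for Mvk, was the lowest for this Mmab probe set. The other 3 Mmab probe sets were dimmer, at most 78.8 on any array, and their order of arrays differed: T-ETV1 C was the lowest T-ETV1 array in one, at 9.82, and the highest in another, at 57.25.

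Pmvk, the phosphomevalonate kinase, had 830.5, 1193, 639 and 737 in T-ETV1 A to D, against 609, 908 and 720.2 in WT A to C. The B array was the highest of each group, and the ranges lay over each other. The difference of its only probe set was 0.16 ± 0.24 (limma adjusted p = 0.951), and it was -0.01 without T-ETV1 B and 0.31 without WT B.

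Mvd, the diphosphomevalonate decarboxylase, had 466, 578, 619.9 and 523 in T-ETV1 A to D, against 629, 426 and 282 in WT A to C. The T-ETV1 arrays lay close together while WT spread over more than their range at both ends. The difference was 0.35 ± 0.26 (limma adjusted p = 0.882) and was 0.07 without WT C, the lowest array, and 0.63 without WT A, the highest. The second probe set, 1417303_at, had a difference of 0.27 ± 0.25 and also had WT A and WT C as the outer arrays of WT, at 329 and 161.

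Idi1, the isopentenyl diphosphate isomerase, had 1344, 2288, 1197 and 945 in T-ETV1 A to D, against 694, 1166 and 704 in WT A to C. T-ETV1 B was the highest and T-ETV1 D, at 945, lay below WT B, so the groups overlapped. The mean was 1443 ± 587 (SD, n = 4) in T-ETV1 and 855 ± 269 (SD, n = 3) in WT. The log2 difference was 0.71 ± 0.34 (limma adjusted p = 0.833), with a 95% interval of -0.09 to 1.51, and it was 0.46 without T-ETV1 B. The other probe set, 1423804_a_at, had 513, 1146, 520.5 and 476 in T-ETV1 against 259.6, 476.2 and 274 in WT. Its difference was 0.90 ± 0.36 (limma adjusted p = 0.840 over all probe sets), and here too T-ETV1 D was level with WT B. Idi2, the paralogue of Idi1, was at most 22.3 on any array.

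Fdps, the farnesyl diphosphate synthase, had 1408, 1766, 1396 and 1704 in T-ETV1 A to D, against 1415, 1594 and 955 in WT A to C. WT C was lower than the other 6 arrays, which overlapped. The difference was 0.27 ± 0.20 (limma adjusted p = 0.882), and it was 0.05 without WT C and 0.42 without WT B. The second probe set, 1438150_at, was dim, with 2.45 to 16.3 in T-ETV1 and 13.9 to 20.1 in WT, and had a difference of -0.44 ± 0.21. The mean of both probe sets gave Fdps a difference of -0.09.

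Fdft1, the squalene synthase, had 1991, 3283, 2005 and 2211 in T-ETV1 A to D, against 1311, 1987 and 1297 in WT A to C. All T-ETV1 arrays were above all WT arrays, by a margin of 1991 to 1987. Fdft1 was the 1 of 7 enzymes with groups that did not overlap, against 2.42% of all genes with every T-ETV1 array higher. The groups overlapped after quantile normalization and after median centring. The mean was 2373 ± 615 (SD, n = 4) in T-ETV1 and 1532 ± 394 (SD, n = 3) in WT. The log2 difference was 0.62 ± 0.24 (limma adjusted p = 0.801), with a 95% interval of 0.05 to 1.20 that is not adjusted for the number of genes, and lay between 0.46 and 0.82 when each array was left out in turn. The exact two-sided permutation p was 0.0571, the smallest that 4 against 3 arrays allow. The probe set 1448130_at had 1576, 2881, 1496 and 1807 in T-ETV1 against 1181, 1728 and 1161 in WT. Its difference was 0.48 ± 0.27, and with it the groups overlapped. The other 2 Fdft1 probe sets had means of at most 26.2 in either group.

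**Figure D2:**
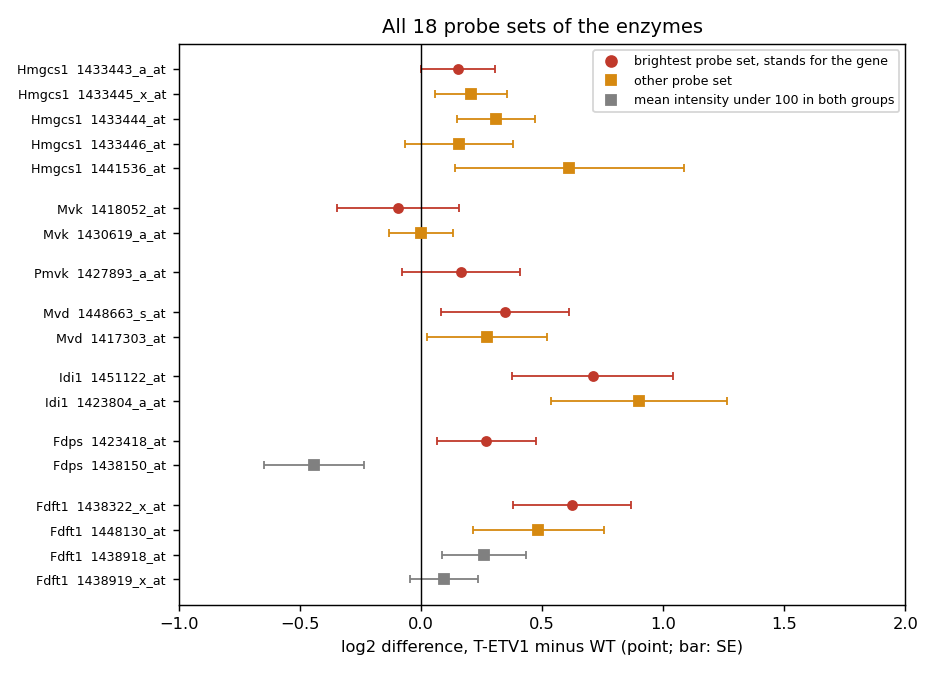
Log2 difference, T-ETV1 minus WT (x axis; bars are the limma SE), for the 18 probe sets of the 7 enzymes, with the brightest in red, the others in orange and those with means under 100 in both groups in grey. Of the 18, 15 lie right of zero, both Mvk probe sets lie at or left of it, and the dim Fdps probe set is furthest left at -0.44.

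Over single probe sets 15 of 18 had a positive difference, against 45.9% of all 45037 probe sets, and 0 passed the threshold over all of them (limma). The groups did not overlap in 1 of the 18, against 2.56% of all probe sets with every T-ETV1 array higher. In 5 of the 7 genes all probe sets pointed upwards. Mvk and Fdps were the exceptions. Probe sets of a gene share their target, so they are not separate observations.

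Across arrays, several enzymes had their highest and lowest values in the same libraries. T-ETV1 B was the highest of the 4 T-ETV1 arrays for 5 of the 7 enzymes (Hmgcs1, Pmvk, Idi1, Fdps and Fdft1), against 27.8% of all genes, and T-ETV1 C was for Mvk and Mvd. WT B was the highest WT array for 6 of 7, all but Mvd, against 25.8% of all genes. Both B arrays were the highest of their group for 5 of 7, against 8.74% of all genes. The B arrays also had the highest luminal marker sums of their groups, at 80880 in T-ETV1 and 77003 in WT. A link between the enzymes and these sums was not tested. The lowest of the 7 arrays was a WT array for 6 of 7 enzymes, against 36.7% of all genes, with WT A lowest for Hmgcs1, Pmvk and Idi1 and WT C for Mvd, Fdps and Fdft1. The mean of the 7 enzymes, each centred on its 7-array mean, was -0.03, 0.42, 0.15 and -0.01 in T-ETV1 A to D and -0.21, 0.07 and -0.39 in WT A to C. WT B thus lay above T-ETV1 A and D, and WT C, which had the highest sums of basal, endothelial, fibroblast, smooth muscle, leukocyte and myeloid markers, was the lowest array. T-ETV1 C, next to it in leukocyte and myeloid sums, was the second highest.

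**Figure D3:**
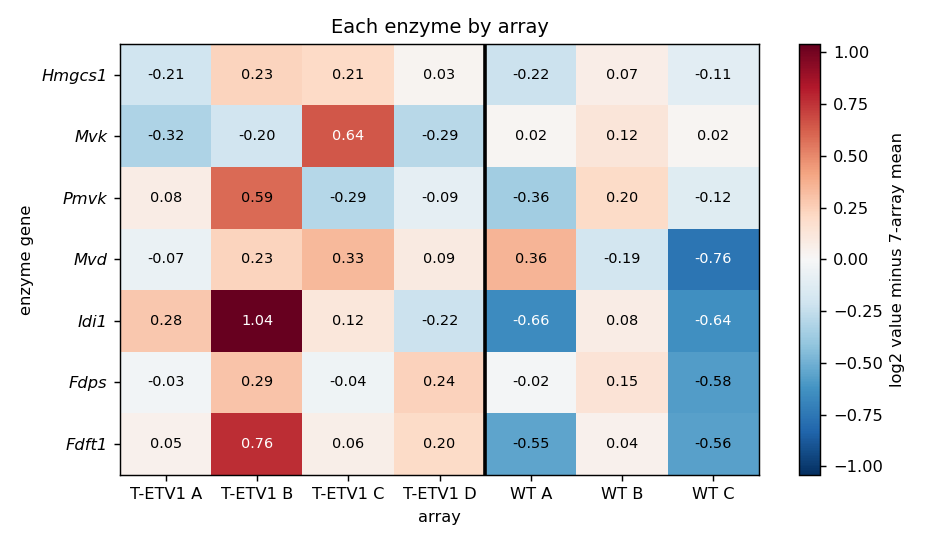
Log2 value of each enzyme minus its mean over the 7 arrays, by array, with T-ETV1 left of the black line and WT right of it. The T-ETV1 B column is the highest for 5 enzymes, with Idi1 at 1.04 and Fdft1 at 0.76, while WT A and WT C hold the lowest values of 6 enzymes, and Mvk stands out in T-ETV1 C at 0.64.

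The letters A to C name arrays of either group, and arrays sharing a letter were set against each other. The labels do not state whether arrays of the same letter belong together. Idi1 and Fdft1 differed by nearly the same amount in each letter. The Idi1 log2 difference was 0.94 for A, 0.96 for B and 0.75 for C, and that of Fdft1 was 0.60, 0.72 and 0.62. For both genes the A and C arrays of a group were close. Centred Fdft1 was 0.05 and 0.06 in T-ETV1 A and C, and -0.55 and -0.56 in WT A and C. Centred Idi1 was 0.28 and 0.12 in T-ETV1 A and C, and -0.66 and -0.64 in WT A and C. Exchanging A and C would thus change the differences little, and their evenness does not show that arrays of a letter belong together. Idi1 and Fdft1 were the 2 of 7 enzymes higher by over 0.5 in all 3 letters, against 0.522% of all genes. The mark of 0.5 was not among the planned comparisons and lies just under the smallest of their differences, 0.60. The share is thus a description and not a test. With Hmgcs1, at 0.01, 0.16 and 0.32, there were 3 of 7 enzymes higher in all 3 letters, against 10.9% of all genes. The remaining enzymes were split between letters. Mvk was -0.34 and -0.33 for A and B and 0.62 for C, Mvd ran over -0.42, 0.43 and 1.09, and Pmvk was 0.44 and 0.39 for A and B and -0.17 for C. Fdps had -0.01, 0.15 and 0.54. With the letter as a block, over the 6 arrays A to C, the difference was 0.88 ± 0.13 for Idi1 (limma adjusted p = 0.473) and 0.65 ± 0.12 for Fdft1 (limma adjusted p = 0.520). None of the 7 enzymes and none of all genes passed with the block, where the smallest adjusted p over all genes was 0.353. In these 6 arrays both Idi1 and Fdft1 had groups that did not overlap, since the low T-ETV1 D was not among them, against 3.62% of all genes.

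**Figure D4:**
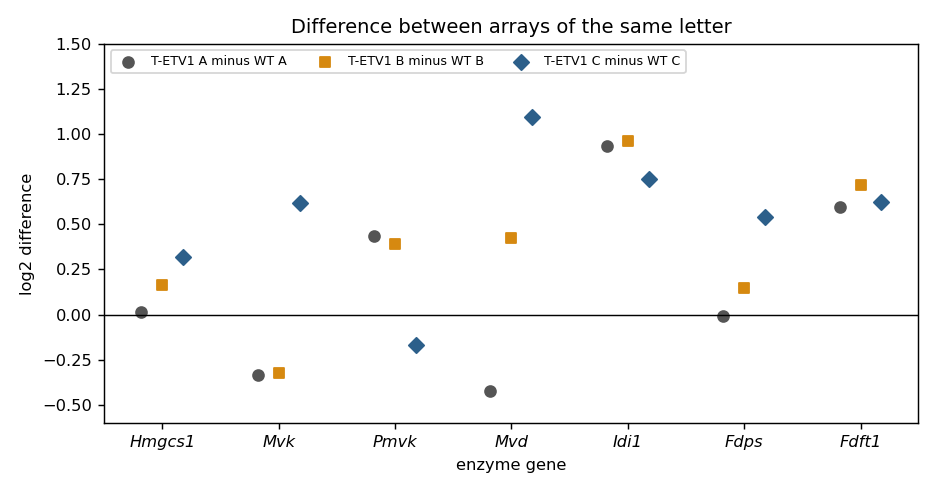
Log2 difference between the T-ETV1 and the WT array of the same letter (y axis) for each enzyme (x axis), with a marker for each of the letters A, B and C. Idi1 lies between 0.75 and 0.96 and Fdft1 between 0.60 and 0.72, while Mvd runs from -0.42 to 1.09.

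The steps after squalene showed differences of similar size. Of 11 genes listed from squalene to cholesterol 10 were measured, and 0 passed the threshold. A positive difference was found for 10 of 10, with a median of 0.35, against 44.4% of all genes. It was also 10 of 10 after quantile normalization, against 54.0% of all genes, and after median centring, against 67.8%. These counts rest on the brightest probe set of a gene. For Hsd17b7 3 of 4 probe sets were higher, and for Sc5d 2 of 3. The smallest unadjusted p values belonged to Sqle, the squalene epoxidase that follows Fdft1 (0.70 ± 0.20, limma adjusted p = 0.717), Msmo1, a sterol methyl oxidase (0.50 ± 0.19, 0.794), and Hsd17b7, a sterol ketoreductase (0.67 ± 0.26, 0.804). Sqle had 821, 1289, 859 and 896 in T-ETV1 A to D, against 507, 697 and 550.0 in WT A to C, and the groups did not overlap. Every T-ETV1 array was higher for 2 of the 10 genes, against 2.42% of all genes, and lower for 0. Both B arrays were the highest of their group for 5 of the 10 genes, Sqle, Msmo1 and Hsd17b7 among them, against 8.74% of all genes. In all 3 letters 4 of the 10 were higher, against 10.9% of all genes. The order of arrays for Dhcr7, a late reductase of the pathway, was different in WT, where C was highest at 2056.

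For the branches that leave the pathway at farnesyl diphosphate, the median difference lay near that of all genes. Of 14 genes listed for prenylation, dolichol and ubiquinone 13 were measured, and 0 passed the threshold. Of these, 3 had a positive and 10 a negative difference, with a median of -0.10, against 44.4% of all genes positive. These signs depended on the scaling. After quantile normalization 5 of 13 were positive, against 54.0% of all genes (median -0.07, against 0.02 for all genes). After median centring it was 8 of 13, against 67.8% (median 0.04, against 0.11 for all genes). Under each of the 3 scalings the median of the list lay below that of all genes. Icmt, which methylates prenylated proteins, had -0.28 ± 0.12 (limma adjusted p = 0.812), Dolk, the dolichol kinase, -0.24 ± 0.11 (0.835) and Ggps1, which makes geranylgeranyl diphosphate from the product of Fdps, -0.23 ± 0.17 (0.882). Ggps1 had 962, 929, 824 and 1205 in T-ETV1 and 1091, 994 and 1380.3 in WT, so that T-ETV1 D lay among the WT arrays. The difference between the branches and the enzymes up to squalene was not tested.

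Before the pathway, 4 genes supply acetyl-CoA or NADPH in the cytosol, and 0 passed. Of these, 3 had a positive difference, against 44.4% of all genes, and 4 after median centring, against 67.8%. Me1, the malic enzyme, had 0.73 ± 0.25 (limma adjusted p = 0.772), Acss2, the acetyl-CoA synthetase, 0.35 ± 0.25 (0.881) and Slc25a1, the citrate carrier of mitochondria, -0.12 ± 0.12 (0.919). Unlike Idi1 and Fdft1, Me1 was lowest in the B array of each group, at 947 in T-ETV1 and 551 in WT. Among isozymes of other compartments, 3 of 6 were measured and 0 passed. Acat1, the thiolase of mitochondria, was at 0.15 ± 0.11 and Acaa2, another mitochondrial thiolase, at 0.10 ± 0.19. These are values of the brightest probe sets, and 1 of 3 Acat1 and 2 of 3 Acaa2 probe sets were higher in T-ETV1. The remaining isozyme, Idi2, was under an intensity of 16 on all WT arrays and on 3 of the 4 T-ETV1 arrays, so its sign was not counted here.

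Of 10 genes listed for SREBP control and sterol uptake 9 were measured, and 0 passed. Under each of the 3 scalings 7 had a positive and 2 a negative difference, the dim Npc1l1 among the 2. The positive share of all genes was 44.4% as deposited, 54.0% after quantile normalization and 67.8% after median centring. Srebf2, which encodes SREBP2, had 2538, 2848, 2636 and 2417 in T-ETV1 A to D, against 2099, 2212 and 2354 in WT A to C. All T-ETV1 arrays were higher, and the difference was 0.23 ± 0.10 (limma adjusted p = 0.822). This held for 1 of the 9 genes, against 2.42% of all genes, and 1, Npc1l1, had all T-ETV1 arrays lower. Npc1l1, a sterol transporter of the cell surface, was dim, at most 13.3 in T-ETV1 and 25.4 to 36.1 in WT, with a difference of -0.86 ± 0.22 (limma adjusted p = 0.646). Mbtps2, a protease that releases SREBPs, had -0.27 ± 0.14 (limma adjusted p = 0.846).

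**Figure D5:**
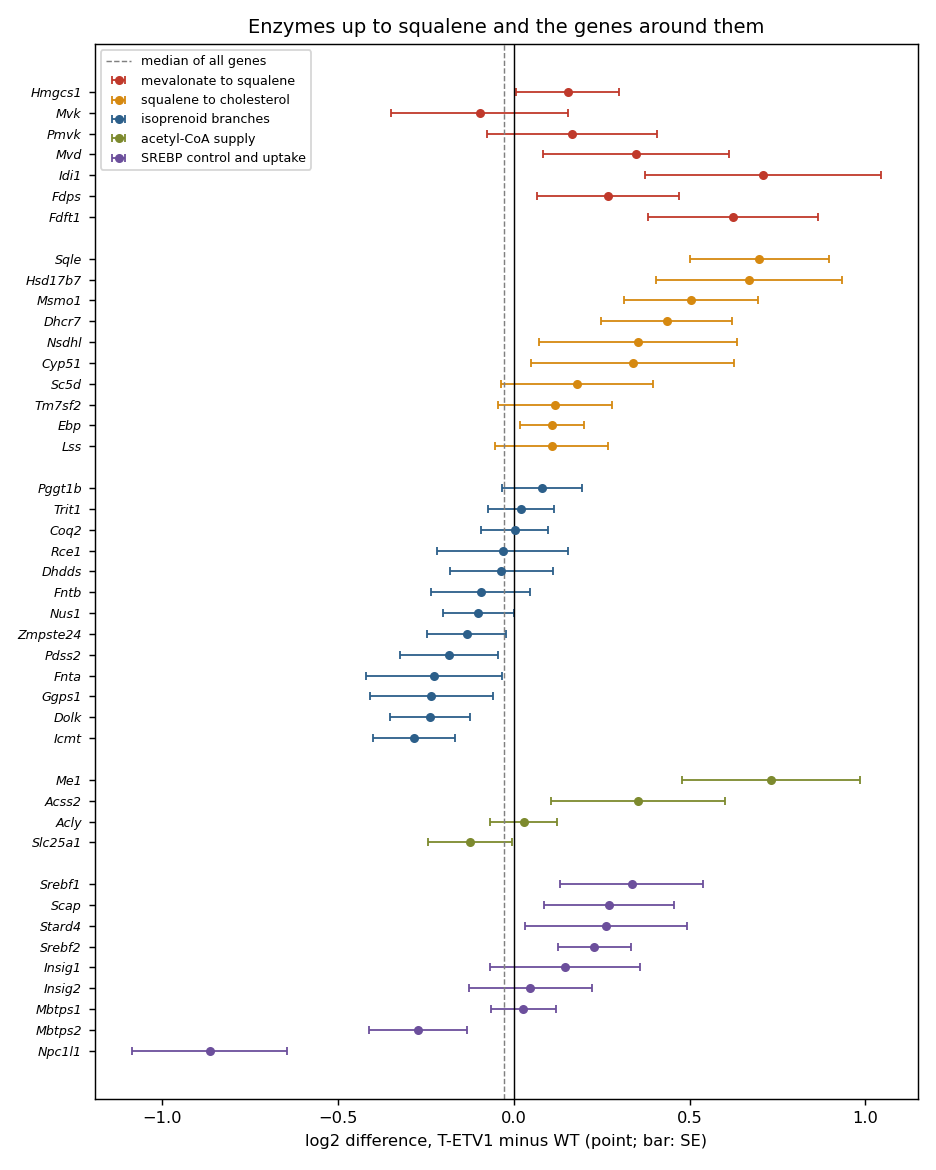
Log2 difference, T-ETV1 minus WT (x axis; bars are the limma SE), for the measured enzymes up to squalene in pathway order and for the genes of the other lists, with the median of all genes as a dashed line. Fdft1 and Idi1 lie beside Sqle and Hsd17b7 between 0.62 and 0.71, while 10 of 13 branch genes lie left of zero, and 5 of 13 do after median centring.

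The genes with the pattern most like that of the enzymes were sought by the mean absolute difference, over the 7 arrays, between a gene's centred log2 values and the mean of the 7 enzymes, among 7683 genes that ranged at least as widely (0.816) over the arrays. The nearest were Fgf14 (0.070), Mad2l1 (0.085), Foxa3 (0.090), Klhl5 (0.090) and Ropn1 (0.092). Of these, Fgf14 and Foxa3 were at or under an intensity of 16 on 6 of the 7 arrays, so that their places rest on probe sets that are hardly above the low end of the scale. Mad2l1 had means of 357 in T-ETV1 and 267 in WT, Klhl5 1110 and 899.6, and Ropn1 49.4 and 35.8. Among the enzymes themselves the same measure was smallest for Hmgcs1 (0.108) and Fdps (0.145) and largest for Mvk (0.341), each of which is part of the mean.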

How the data were processed

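The authors deposited 1 linear intensity per probe set and array, and per the labels' protocols the RNA was extracted with Trizol and amplified with a NuGEN V2 kit. How probes were summarised and arrays scaled is not given in the sources used here. Array medians of log2(intensity + 16) differed by at most 0.476, under a limit of 0.5, so the deposited scaling was kept. Of 45037 probe sets 34945 had 1 symbol in the platform annotation, 932 had several and 9160 had no entry there. Entrez IDs updated the symbols of 34741, and the brightest probe set stood for each of 18193 genes. The groups were compared with limma 3.58.1 in R 4.3.3 (lmFit, eBayes, two-sided) and Benjamini-Hochberg adjustment over all genes, or over all probe sets for single probe sets, with a threshold of 0.05. Permutation p values are exact over the 35 splits of 7 arrays, as 2 times the smaller tail. Deviations from group means correlated at 0.281, 0.217 and 0.356 for arrays sharing the letters A, B and C, all over a limit of 0.1. WT A and T-ETV1 D, with unlike letters, also passed it at 0.187, so the correlation does not establish pairs. Both C arrays also had the highest sums of other-cell markers in their groups. The labels give the letters but do not state what they stand for. Letters were used for the comparison by letter and the block, and not in the main fit. The fit was tested on simulated data for 4 against 3 arrays and 18193 genes, where it recovered 43 of 100 genes changed by 1 log2 unit and 71 of 100 changed by 2, with 9 false calls among 123 calls in all. The simulated noise was drawn for each gene on its own from its observed SD, without shifts shared by genes of an array. Both changes were larger than that of any enzyme in the main fit (at most 0.71), so the recovery does not carry over to the enzymes. Alternatives are given in the closing section. The enzymes, lists and motifs were chosen with earlier results of these data known. Named are all enzymes, up to 3 genes of each pathway list by smallest p, the most abundant gene of each marker list, and the 5 genes nearest in pattern. Dhcr7, Mmab and Itgam were added after their values were seen. The number of arrays limits the precision.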

Additional observations from a re-analysis of the deposited data

Results flagged for a closer look

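In 24 groups of 4 T-ETV1 arrays (18 probe sets, the mean of the enzymes and 5 pathway lists) 3 had an array whose gap to its nearest neighbour, divided by the range, was over Dixon's critical value, which chance gives in about 1 of 20. Mvk had T-ETV1 C above the others, with a ratio of 0.878, at an intensity of 632.5 against 317 to 345 in the other T-ETV1 arrays. The Idi1 probe set 1423804_a_at had T-ETV1 B above the others, with a ratio of 0.898, at 1146 against 476 to 520.5. The mean of the SREBP control and uptake list had T-ETV1 B above the others, with a ratio of 0.858, at a centred mean of 0.26 against -0.10 to -0.05.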

How the results depend on the processing

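No enzyme passed the threshold under any of the alternatives run, nor at a threshold of 0.1, and the smallest adjusted p of an enzyme was 0.396. The difference was positive in all 20 refits for 4 enzymes, at 0.36 to 0.82 for Fdft1 and 0.35 to 0.95 for Idi1, but near zero at the low end for Hmgcs1 (0.013 with array weights, to 0.29) and Mvd (0.0057 without both C arrays, to 0.63). Mvk turned to 0.040 after median centring, Fdps to -0.086 with its probe sets averaged or fitted singly, and Pmvk to -0.012 with array weights, while leaving out 1 array gave Pmvk -0.0086 (without T-ETV1 B) to 0.31. The cause was not tested. The enzymes whose groups did not overlap numbered 0 after quantile normalization, after median centring and with every probe set on its own. The share with every T-ETV1 array higher was 3.8% and 5% of all genes, and 2.56% of all probe sets. There were 2 such enzymes with the replicate block, against 3.62% of all genes. With 1 array left out there were 1 to 2, against 3.62% to 6.71% of all genes, a share that was 2.42% with all arrays. The median difference of the enzymes lay between 0.14 (without WT C) and 0.35 (without WT B) when 1 array was left out, and was 0.09 with array weights. In the 5 pathway lists, Idi2 and Npc1l1 included, 26 of 39 genes had a positive difference in the main fit and 32 after median centring. Counting only genes with every probe set positive, it was 19 of 39. The replicate block changed no call at the adjusted threshold. Its unadjusted limma p was 0.0027 for Idi1 and 0.0070 for Fdft1, against 0.074 and 0.038 in the main fit. These ranked 101 and 236 among 18193 genes with the block, and the adjusted p values were 0.473 and 0.520. Over all genes 7 passed without WT C, 27 without T-ETV1 C and 68 without both, against 0 with all arrays, and none of them was an enzyme up to squalene.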
